A study of Drosophila melanogaster with 2 samples.

Results

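The nuclear genes of oxidative phosphorylation were examined in a ChIP-seq experiment on whole prepupae of Drosophila melanogaster, for summits close to their start sites. The 86 members were taken from 13945 nuclear protein-coding genes by symbol: ND- for complex I (40 genes), SdhA to SdhD for complex II (4), UQCR-, RFeSP and Cyt-c1 for complex III (11), COX followed by a digit for complex IV (16) and ATPsyn for complex V (15). Summits were placed on dm6 and assigned to a gene within 500 bp of any of its annotated start sites. The labels describe a stable transgenic line whose CG6854 product carried GFP at its C terminus, with males and females pooled, age unknown, anti-GFP used for the precipitation and CTPsyn, the CTP synthase, named as the target. All libraries belonged to 1 group, with biological replicates numbered 2 and 3, so no condition was compared with another and no library of control DNA was analysed here. The promoter that drives the transgene is not given in the sources used here.

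Oxidative phosphorylation takes place in the inner membrane of the mitochondrion. Complexes I and II pass electrons from NADH and succinate to ubiquinone, complex III passes them on to cytochrome c, and complex IV, cytochrome c oxidase, hands them to oxygen. The proton gradient built by complexes I, III and IV drives complex V, the ATP synthase. Complexes I, III, IV and V also hold subunits from the mitochondrial genome, whereas every member described here is encoded in the nucleus.

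The peaks past the authors' irreproducible discovery rate (IDR) threshold numbered 5703. Their signal value, a score that the authors gave each peak and whose scale is not stated, ran from 136.3 to 2488 with a median of 200.1. The pooled list and each replicate list were called with relaxed settings and held 30000 summits each, background included. Read depth per library is unknown. Signals are comparable within a list only, so each replicate's value belongs to its own list and the replicates are compared by rank. A gene is called bound below when an IDR summit lay within 500 bp of a start site. Every bound member had the same rank in the pooled list as in the IDR list. The best-placed unbound member, ND-B17.2, ranked 5968 in the pooled list. Among members, bound therefore amounts to a cut on pooled signal and does not show that a summit ranked alike in both replicates. The strongest promoter summit of Ctps, the gene the labels name as target, had a signal of 2008 and ranked 8 in the IDR list; CG6854 is an older name of 2 annotated genes, and which product carries the tag cannot be told apart from the name.

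Promoters of oxidative phosphorylation genes mostly held summits that did not reach the IDR list. Of the 86 members, 12 were bound (14.0%, 95% Wilson interval 8.17 to 22.8), beside 20.0% of all nuclear protein-coding genes. A relaxed pooled summit lay in the same window at 59 members (68.6%), beside 48.1% of all genes. Of the members with a relaxed summit 20.3% were bound, and of all genes with one 41.5% were. The interval of the bound share holds the 20.0% of all genes, and without the 21 members named as paralogues the share was 18.5%. The intervals of complexes I, II, III, IV and V each hold 20.0% too. No test was made of these differences, since a list of genes chosen by name is described here by its counts; the interval covers counting error only. The median signal of the 12 strongest summits was 162.6, beside 212.5 over all 2785 bound genes, and 9 of the 12 lay below the median of the IDR list.

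**Figure D1:**
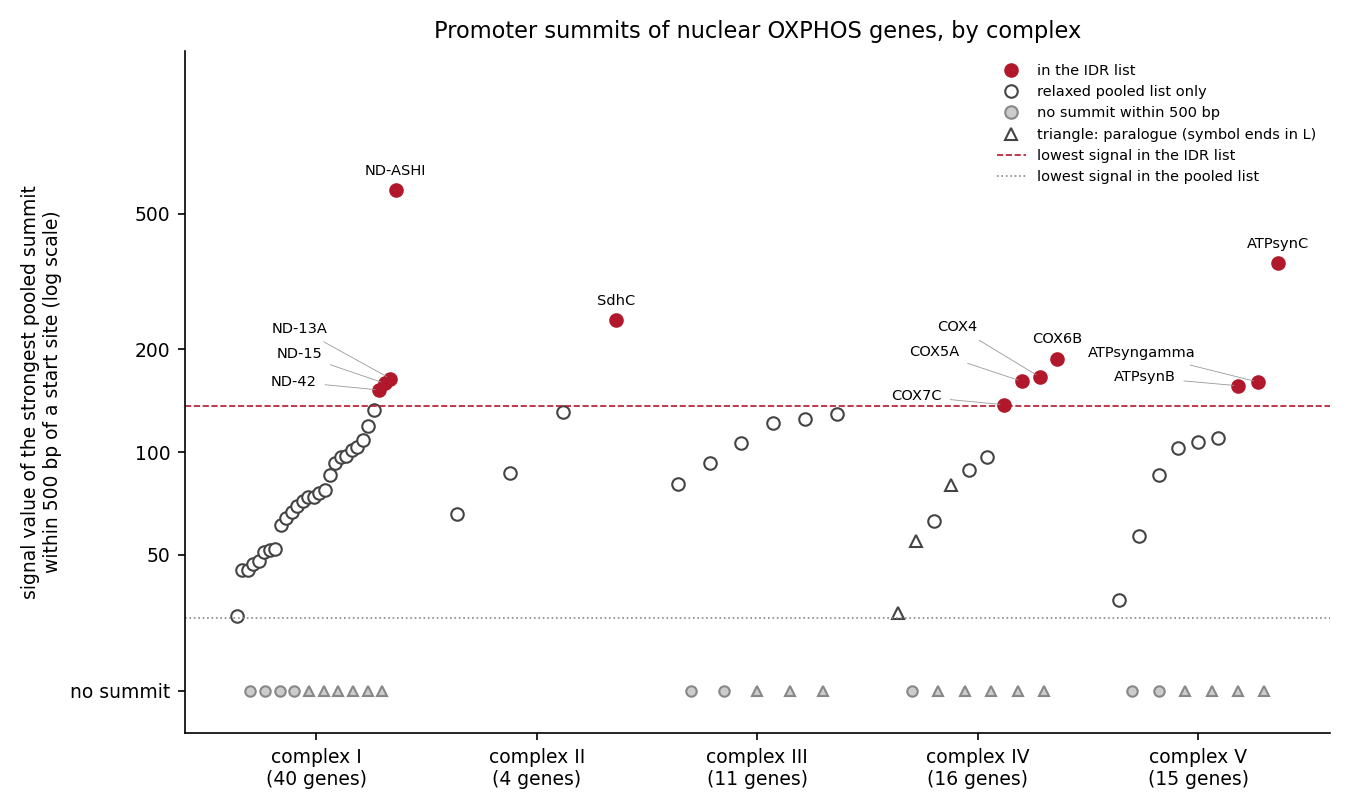
Signal value (log scale) of the strongest pooled summit within 500 bp of a start site for each of the 86 members, by complex; filled points are in the IDR list, open points only in the relaxed pooled list, and grey points at the bottom had no summit in the window. The open points lie between the lowest signal of the pooled list, 32.7, and the lowest of the IDR list, 136.3, and triangles, the paralogues, lie at the bottom except for COX5BL, COX7AL and COX7AL2.

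Among the 40 complex I genes, 4 were bound, and all 4 encode accessory subunits. The strongest summit of any member belonged to ND-ASHI, the fly counterpart of human NDUFB8, at chrX:6679235-6679519, with a signal of 584.6. It ranked 263 in the IDR list and had signals of 271.5 in replicate 2 and 304 in replicate 3. Both replicates placed it in the top part of their lists, at ranks 235 and 328. The summit lay 238 bp upstream of the start of ND-ASHI and 284 bp from the start of Fum1, a fumarase gene of the citric acid cycle on the opposite strand. The summit with 50 bases on either side is shown because this is the strongest site of the gene set. Capitals mark the only match to a motif searched, the letters TATAAA (dm6, chrX:6679306-6679406, minus strand).

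ND-ASHI: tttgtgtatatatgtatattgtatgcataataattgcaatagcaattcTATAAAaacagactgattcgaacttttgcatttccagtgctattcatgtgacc

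The other bound complex I genes had weaker summits. ND-13A, the counterpart of human NDUFS6, had a signal of 164.2 at chr2L:5099858-5100287, with 95.7 in replicate 2 and 86.6 in replicate 3. ND-42, the counterpart of NDUFA10, had a signal of 152 at chr3R:22027352-22027781, with 76.2 and 86.7 in replicates 2 and 3. For these genes the replicates lay close together in rank, between 3193 and 4896. ND-15, the counterpart of NDUFS5, had a signal of 159 at chr2L:155220-155649, and here the summits matched within 100 bp lay far apart in rank. Its summit had a signal of 90.4 and rank 4095 in replicate 3, and the best summit within 100 bp in replicate 2 had a signal of 20.9 and rank 24809, near the end of that list. Replicate 2 held a stronger summit within 500 bp of a start site of ND-15, with a signal of 79.8 at rank 4504, over 100 bp from the IDR summit. Which of the 3 annotated start sites it lay at is not given here, so it may belong to another promoter of the gene. ND-15 was bound through one of several annotated start sites and was no longer bound when the 5′ end of the gene alone was used.

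The core subunits of complex I, which carry the flavin and the iron-sulphur clusters or lie next to them, were ND-75, ND-51, ND-49, ND-30, ND-24, ND-23 and ND-20, a grouping made after the values were seen. Of these 7 genes 0 were bound, with a 95% Wilson interval up to 35.4%, beside 20.0% of all genes. A relaxed pooled summit lay at 6 of them, beside 48.1% of all genes. ND-75, which carries iron-sulphur clusters, had a pooled signal of 101.1 (38.9 in replicate 2, 59.2 in replicate 3), and ND-51, which binds NADH and the flavin, had 97.4 (48.7 and 86.4). ND-49 had 73.9 (no summit in replicate 2, 43.4 in replicate 3) and ND-24 had 61.3 (18.1 and 49.9). By rank, ND-75 stood at 12951 in replicate 2 and 8247 in replicate 3, ND-51 at 9747 and 4427, and ND-24 at 28215 and 10667. ND-30 had 51.5 (41.9 in replicate 2, none in replicate 3), ND-20 had 50.9 (41.4 and 26.5), and ND-23 had no pooled summit. Of the 27 other complex I genes that are not named as paralogues, 4 were bound (14.8%, interval 5.92 to 32.5) and 24 had a relaxed summit. Both intervals hold the 20.0% of all genes and they overlap, so these counts do not tell core and other subunits apart. The unbound complex I promoters with the strongest relaxed summits were those of ND-B17.2 (signal 132.4, rank 5968 in the pooled list) and ND-B22 (118.9, rank 7097). In replicates 2 and 3 ND-B17.2 had signals of 55.5 and 74.4, and ND-B22 had 52.9 and 73.3. Both summits lay within 4 bp of a start site.

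In complex II, succinate dehydrogenase, 1 of 4 genes was bound. SdhC, a membrane anchor subunit, had a summit at chr3R:11210217-11210370 with a signal of 243.5, and 124.8 and 119.8 in replicates 2 and 3. This summit lay 468 bp upstream of SdhC and 70 bp from the start of Tctp, a gene on the opposite strand, and it was the member summit closest to the 500 bp limit from inside. SdhD, the other anchor subunit, was just below the IDR list at a signal of 130.7, with 49.5 in replicate 2 and 83.4 in replicate 3. SdhA, the flavoprotein, had 86.9, with 62 and 36.3 in the replicates. SdhB, which carries the iron-sulphur clusters, had 65.8, with 31.2 and 30.8. SdhD was among the 5703 strongest summits of replicate 3 and not of replicate 2, so that replicate 3 alone gave 2 genes in this complex. SdhD ranked below SdhA in replicate 2 and above it in replicate 3. The sequence at the SdhC summit is shown because it is the third strongest of the set and lies nearer to Tctp; it is printed on the strand of SdhC and holds no match to a motif searched (dm6, chr3R:11210267-11210367, minus strand).

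SdhC: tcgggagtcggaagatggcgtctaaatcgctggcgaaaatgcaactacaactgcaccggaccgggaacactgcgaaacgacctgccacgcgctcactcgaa

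Of the 11 complex III genes 0 were bound, with a 95% Wilson interval up to 25.9%. The interval holds the 20.0% of all genes, so the count does not set this complex apart from them. Relaxed summits lay at 6 of them, with signals from 80.4 to 129.6. The highest were at UQCR-C2, a core protein of the complex (signal 129.6, with 53.6 in replicate 2 and 71.6 in replicate 3), and at UQCR-Q (124.6, with 60.7 and 63). UQCR-C1, the other core protein, had 121.4 (57.7 and 59.4), and RFeSP, the Rieske iron-sulphur protein, had 106.2 (41 and 57.2). All of these were under the lowest IDR signal of 136.3, which follows from their being unbound. None was among the 5703 strongest summits of either replicate. UQCR-6.4 had 92.8 (48.2 and 67.8) and UQCR-14 had 80.4 (61.7 and 22). Cyt-c1, which holds the haem that reduces cytochrome c, had no relaxed pooled summit, and its promoter held a summit in replicate 2, with a signal of 32.9 at rank 15693, and none in replicate 3.

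In complex IV, 4 of 16 genes were bound, all with signals under the IDR median. COX6B had a signal of 187.7 at chrX:19744017-19744446, with 103.4 in replicate 2 and 87.1 in replicate 3. COX4 had 166.1 at chr2L:19958645-19959074, with 76.7 and 79.4. COX5A had 161.1 at chr3R:11819002-11819431, with 90.2 and 64.2. COX4 ranked 4850 in replicate 2 and 5154 in replicate 3, while COX6B ranked 2727 and 4368 and COX5A 3582 and 7287. COX7C had 137.6 at chr2R:10048246-10048675, with 82 and 60.2, and stood at rank 5617 of 5703, at the edge of the list. COX4, COX5A, COX6B and COX7C are structural subunits around the catalytic core, which the mitochondrial genome encodes. Among the unbound genes COX7A had a relaxed signal of 96.7 (74 in replicate 2, 58.4 in replicate 3) and COX5B had 88.5 (64.3 and 40.7). Read from replicate 3 alone, COX5A and COX7C were not among its 5703 strongest summits, which left 2 genes of this complex.

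In complex V, 3 of 15 genes were bound. ATPsynC, which encodes the c subunit of the membrane rotor, had the second strongest summit of the set, at chr3R:31219389-31219627, with a signal of 358 at rank 837. Replicates 2 and 3 gave 184.6 and 167.1 at ranks 666 and 1218. A weaker IDR summit of ATPsynC, 421 bp downstream of its nearest start site, had a signal of 148.8, with 49.7 and 91.6 in the replicates. ATPsynC was the only member with more than 1 IDR summit in its promoters, so the 12 genes held 13 summits. The window of 50 bases on either side of its stronger summit, 66 bp downstream of a start site in the 5′ UTR, held none of the motifs searched (dm6, chr3R:31219443-31219543, minus strand).

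ATPsynC: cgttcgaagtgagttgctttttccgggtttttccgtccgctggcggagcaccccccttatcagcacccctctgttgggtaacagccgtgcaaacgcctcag

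ATPsyngamma, the subunit of the central stalk, had a signal of 160.4 at chr3R:29748583-29749012, with 66.1 in replicate 2 and 90.7 in replicate 3. ATPsynB, of the peripheral stalk, had 156.4 at chr3L:9729982-9730411, with 68.7 and 42.4 for the summits matched within 100 bp. The ATPsynB promoter held a stronger replicate 3 summit, with a signal of 87.6 at rank 4327, that lay over 100 bp from the IDR summit. By its strongest summit in each list ATPsynB ranked 5848 in replicate 2 and 4327 in replicate 3, and ATPsyngamma ranked 6194 and 4071, so both ranked higher in replicate 3. ATPsynG and ATPsynD, with relaxed signals of 109.8 and 106.9, were the strongest unbound genes of the complex. In replicates 2 and 3 ATPsynG had 51.5 and 59.4, and ATPsynD had 43.7 and 64.2. The replicates lay far apart in rank at ATPsynCF6, of the peripheral stalk, whose pooled signal of 102.7 went with 74.2 at rank 5123 in replicate 2 and 33.1 at rank 18124 in replicate 3. ATPsyndelta, of the central stalk, had 85.6 (51.5 and 31.7) and ATPsynE had 56.8 (31.9 and 67.1). ATPsynF had the weakest summit of the complex, 36.8, with 27.9 in replicate 2 and none in replicate 3. ATPsynbeta, the catalytic subunit, had no relaxed pooled summit in the window, though the replicate lists held one, with a signal of 21.1 at rank 24581 in replicate 2 and 73.4 at rank 5862 in replicate 3. ATPsynO, of the peripheral stalk, had no summit in the pooled list or in either replicate.

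Most summits of bound members lay in promoters shared with another gene. Another protein-coding gene started within 500 bp of the strongest summit at 8 of the 12 members (66.7%), as at 36.4% of all bound genes. The neighbour was at least as close to the summit at 4 of the 8. These were Cchl, a cytochrome c haem lyase gene, at ND-42 (87 bp against 142 bp), Tctp at SdhC, glo, which encodes an RNA-binding protein, at COX5A (113 against 142 bp), and CG18809 at COX6B, which uses the same annotated start site, so that both lie at 103 bp. CG33932 and Rpp20 also started 199 bp from the COX6B summit. At the other 4 the member was closer: Fum1 at ND-ASHI, Pus10 at ND-15 (130 bp against 100 bp), oys at COX7C (158 against 108 bp) and yata at ATPsyngamma (421 against 71 bp). The peaks do not say which of the genes at a shared promoter a summit belongs to. ND-13A, COX4, ATPsynB and ATPsynC had their summit to themselves.

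**Figure D2:**
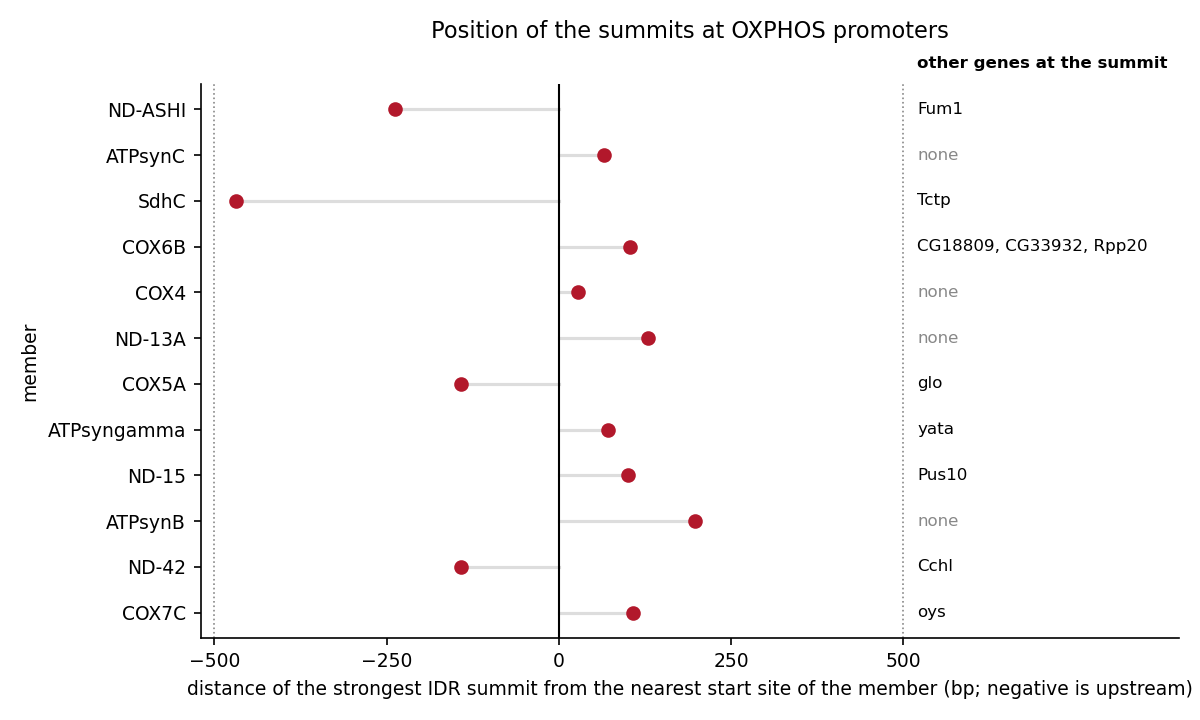
Distance in bp of the strongest IDR summit from the nearest start site of each of the 12 bound members, negative upstream, with the other protein-coding genes that start within 500 bp of the summit named at the right. Upstream summits, at ND-ASHI, SdhC, COX5A and ND-42, all lie at promoters with a second gene.

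The strongest summit lay downstream of the nearest start site at 8 members and upstream at 4. The median distance was 118.5 bp, close to the 119 bp of all bound genes. Summits were in the 5′ UTR at ND-15, COX4, COX7C, ATPsynC and ATPsyngamma, in an intron at COX6B and ATPsynB, and in a coding exon at ND-13A. Just outside the limit, the nearest IDR summit lay 539 bp from ATPsynG (signal 210.3), 626 bp from COX7AL2 (290.6), 787 bp from ND-75 (310.5) and 967 bp from ATPsynD (193). These 4 genes would be added by a window of 1000 bp. Over the 86 members the median distance to the nearest IDR summit was 4965 bp, beside 7286 bp over all protein-coding genes.

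Paralogues differed from the remaining members. Many of these duplicated genes, named after another subunit with an L added, are known for expression biased to the testis. Of 21 such genes 0 were bound and 3 had a relaxed summit (14.3%), namely COX5BL, COX7AL and COX7AL2. Of the other 65 members 12 were bound (18.5%) and 56 had a relaxed summit (86.2%). The 9 without one were ATPsynbeta, ATPsynO, COX8, Cyt-c1, ND-23, ND-AGGG, ND-B8, ND-MLRQ and UQCR-11. Counted without paralogues, 4 of 34 complex I (95% Wilson interval 4.67 to 26.6%), 1 of 4 complex II and 0 of 8 complex III genes were bound. In complex IV it was 4 of 8 (21.5 to 78.5%) and in complex V 3 of 11 (9.75 to 56.6%), beside 20.0% of all genes. The complex IV interval lies above 20.0%, but the count was 5 in replicate 2 and 2 in replicate 3. Among the stronger 2851 peaks it was 0.

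The number of start sites moved with the count. A gene with more annotated start sites offers more windows, and 37.4% of all genes with 2 or more start sites were bound against 13.7% of those with 1. Members followed the same order at lower shares, with 9 of 34 (26.5%) and 3 of 52 (5.77%). Its part in the result was not tested.

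The relaxed summits of members were weak. Over the 59 genes their signal ran from 33 to 584.6 with a median of 92.8, beside 116.9 over the 6712 genes with a relaxed promoter summit. The 47 unbound ones ran from 33 to 132.4 with a median of 79.9. That they lie under the lowest IDR signal of 136.3 follows from how bound was defined, and is no further result. The values of unbound genes as a whole are not given here. Median signals by complex were 75 in complex I, 108.8 in II, 113.8 in III, 92.6 in IV and 106.9 in V, so that complex I had the weakest summits beside its strongest one, at ND-ASHI. A deposited q-value under 0.05 went with the strongest pooled summit at 47 of the 86 members (54.7%), beside 40.0% of all genes. Complex III, with 0 bound, had 6 such genes, and complex I had 22. Their summits lay a median of 108 bp from a start site, beside 128 bp over all genes.

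Each replicate list was then read alone, without the pooled list. Among the 5703 strongest summits of replicate 2, 12 members had a promoter summit, beside 20.5% of all genes, and among those of replicate 3, 13 members had one, beside 19.1%. In both replicates together 8 members passed, namely ND-ASHI, ND-13A, ND-15, ND-42, SdhC, COX4, COX6B and ATPsynC, and 17 passed in at least 1. ND-15 passed in replicate 2 through a summit with a signal of 79.8 that lay over 100 bp from the IDR summit, possibly at another of its start sites. Over all summits on the arms, 58 member promoters had one in replicate 2 (67.4%, beside 48% of all genes). Their signals ran from 18.1 to 271.5 with a median of 49.1. In replicate 3, 55 had one (64%, beside 49.1% of all genes), with signals from 21.9 to 304 and a median of 59.2. At 51 promoters both replicates had a summit, and at 24 neither had. Shares of all genes for counts in both replicates, in either or in neither are not given here. The complexes did not keep their order between replicates, since complex IV had 5 genes in replicate 2 and 2 in replicate 3, and complex I had 4 and 6.

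**Figure D3:**
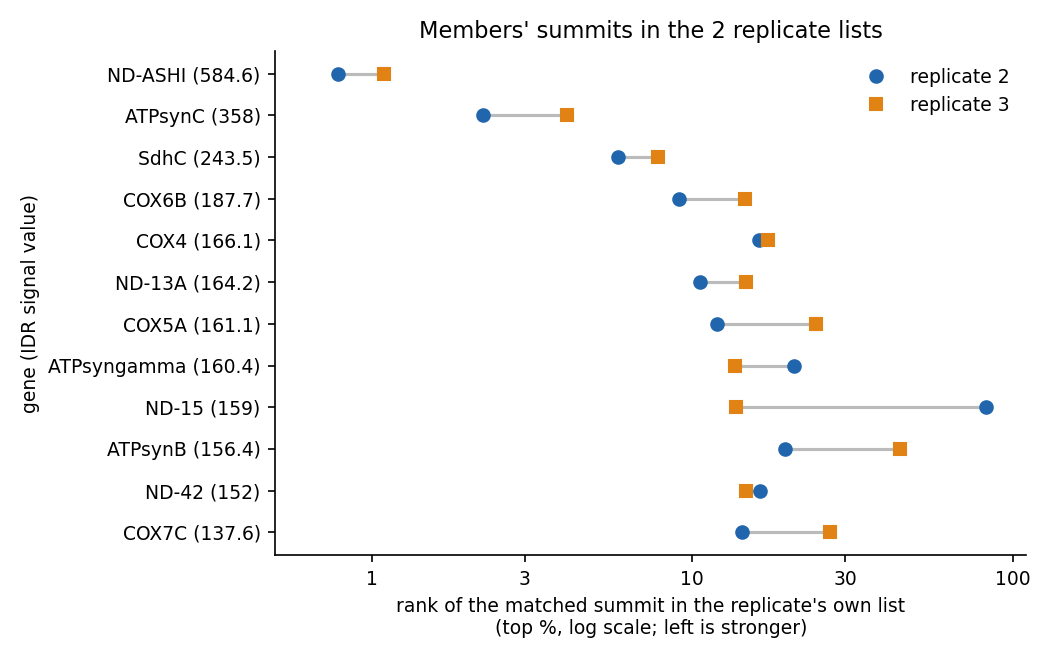
Rank of the matched summit in each replicate's own list, as a top percentage on a log scale with stronger summits to the left, for the 12 bound members in order of IDR signal. ND-ASHI, ATPsynC and SdhC lie in the top 10 percent of both lists, and ND-15 lies at 13.7 percent in replicate 3 and 82.7 percent in replicate 2. A stronger replicate 2 summit near a start site of ND-15, over 100 bp from the IDR summit, is not drawn.

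Motifs were counted in the 300 bases from 250 before to 50 after the canonical start of each gene, on both strands. The core of Motif 1, GGTCACACT, a promoter element bound in flies by M1BP, was in 17 of 86 member promoters (19.8%), beside 5.87% of all promoters. All 17 genes had a relaxed pooled summit and 4 were bound (23.5%), while of all 818 genes with the core 79.0% had a relaxed summit and 29.5% were bound. Of the 69 members without the core 42 had a relaxed summit (60.9%) and 8 were bound (11.6%). Of the 17 members with it 16 are not named as paralogues, a group in which 86.2% had a relaxed summit. The 4 bound genes with the core were ATPsynC, COX4, COX5A and ND-13A, and in none of them did the summit with its 50 bases on either side hold the core. The core lay 32 bases before the start of COX5A, 74 before ND-13A, 177 before COX4 and 233 before ATPsynC. Other motifs were near the share of all promoters: the DNA replication-related element TATCGATA in 8 members (9.3% beside 8.94%), the E-box CACGTG in 4 (4.65% beside 4.26%), TATAAA in 41 (47.7% beside 45.3%), and the core of the NRG element of fly respiratory genes (TTACATAA, TTACGTAA, TTATATAA or TTATGTAA) in 5 (5.81% beside 5.13%). Letters of the NRG core can overlap TATAAA. The GAGA repeat GAGAGAG was in 2 (2.33% beside 6.2%). A polypyrimidine initiator was sought only at the exact annotated start and was found in 0 of 86 members, 0.122% of all genes and 1 of 92 cytoplasmic ribosomal protein genes, which are known for it, so this count says little. Median GC content of the promoters was 34.7% in members and 38% in all genes.

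The promoters of COX4 and COX5A are shown because they hold the Motif 1 core at a bound gene, on opposite strands and at different distances. Capitals mark matches to the motifs searched, in COX4 the replication-related element, TATAAA on the other strand and the Motif 1 core (dm6, chr2L:19958582-19958881, plus strand), and in COX5A TATAAA and the Motif 1 core on the other strand (dm6, chr3R:11819109-11819408, plus strand). A match is a description of the letters and not a site of binding.

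COX4: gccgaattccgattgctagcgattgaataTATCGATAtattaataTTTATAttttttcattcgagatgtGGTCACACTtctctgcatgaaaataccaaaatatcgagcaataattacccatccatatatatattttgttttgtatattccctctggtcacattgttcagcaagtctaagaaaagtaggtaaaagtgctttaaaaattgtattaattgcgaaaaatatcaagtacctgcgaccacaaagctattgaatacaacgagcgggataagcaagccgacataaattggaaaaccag

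COX5A: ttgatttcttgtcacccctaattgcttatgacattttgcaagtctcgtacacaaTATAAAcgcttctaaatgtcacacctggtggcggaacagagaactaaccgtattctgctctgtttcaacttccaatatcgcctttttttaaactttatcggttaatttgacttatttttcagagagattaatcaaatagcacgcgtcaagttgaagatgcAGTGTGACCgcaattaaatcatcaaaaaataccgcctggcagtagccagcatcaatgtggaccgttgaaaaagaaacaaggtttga

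Within 50 bases of the summit, 2 of the 12 bound members held the NRG core, ND-42 and ATPsynB, beside 1.88% of all IDR summit windows. TATAAA was in 3 of the 12, COX4, ND-42 and ND-ASHI, beside 11.8% of those windows. Both counts rest on few genes. The GC content of the ND-42 window was 16.8%. It is printed because its match to the NRG core overlaps a TATAAA, with another TATAAA on the other strand, all in capitals (dm6, chr3R:22027517-22027617, plus strand).

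ND-42: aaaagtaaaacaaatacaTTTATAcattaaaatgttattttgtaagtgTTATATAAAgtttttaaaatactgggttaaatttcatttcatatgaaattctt

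Other genes of the pathway were counted in the same way. Among 10 subunits and carriers that the symbol rule leaves out, 3 were bound: the testis cytochrome c gene Cyt-c-d (signal 498.3, at a promoter shared with another gene), blw, the alpha subunit of ATP synthase (141.4), and the main cytochrome c gene Cyt-c-p (137.2). Assembly factors were bound at 2 of 17, CIA30, a complex I assembly factor (721.6), and Sirup, an assembly factor of complex II (248.9). The citric acid cycle had 4 of 19 bound, Fum1 at the ND-ASHI summit (584.6), Idh3g (426.8), the aconitase gene mAcon1 (224.2) and Scsalpha1 (174). These shares, 30%, 11.8% and 21.1%, lie on either side of the 20.0% of all genes and rest on few genes.

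Carriers of the inner membrane and porin were bound at 12 of 17 genes (70.6%), with Dic1, a dicarboxylate carrier (608.2), colt (474.5), sea, the citrate carrier (453.1), aralar1, an aspartate-glutamate carrier (360.3), Tpc1 (307.7) and Ucp4A (215.6) the strongest. The ATP/ADP carrier gene sesB had a signal of 186.9. This list had a median of 2 start sites per gene, beside 1 for members and for all genes. Factors of mitochondrial DNA upkeep and biogenesis were bound at 3 of 17, the protease gene Lon (772.3), Dref (664) and clu (277.1). The Dref summit was also that of RpL13, a ribosomal protein gene, at 2 bp against 86 bp for Dref, and the Lon summit was shared with another coding gene. Mitochondrial ribosomal protein genes were bound at 14 of 73 (19.2%), led by mRpS23 (1767), mRpS10 (1234), mRpL41 (1122), mRpL23 (538.8), mRpL24 (355.2) and mRpL34 (262.9), and 13 of these 14 shared their summit with another coding gene. Such sharing held for 4 of the 12 bound carrier genes, 3 of the 4 of the citric acid cycle and 30 of the 77 cytoplasmic ribosomal protein genes. Vacuolar ATPase genes, another proton pump, were bound at 8 of 29 (27.6%) and proteasome genes at 8 of 48 (16.7%), while cytoplasmic ribosomal protein genes reached 77 of 92 (83.7%). The strongest of these lists were Vha100-2, Vha13, Vha36-1, Vha68-2, VhaSFD and Vha16-1 (signals from 170 to 507), Prosbeta7, Rpt5, Rpt6, Prosbeta5, Rpn9 and Rpn13 (155.2 to 210.8), and RpS4, RpL24, RpS27, RpS10b, RpL30 and RpL31 (771.5 to 935). The median signal of bound genes was 208.1 in carriers, 229 in mitochondrial ribosomal proteins, 181.2 in the vacuolar ATPase, 165.2 in the proteasome and 405.9 in cytoplasmic ribosomal proteins, beside 162.6 in members.

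**Figure D4:**
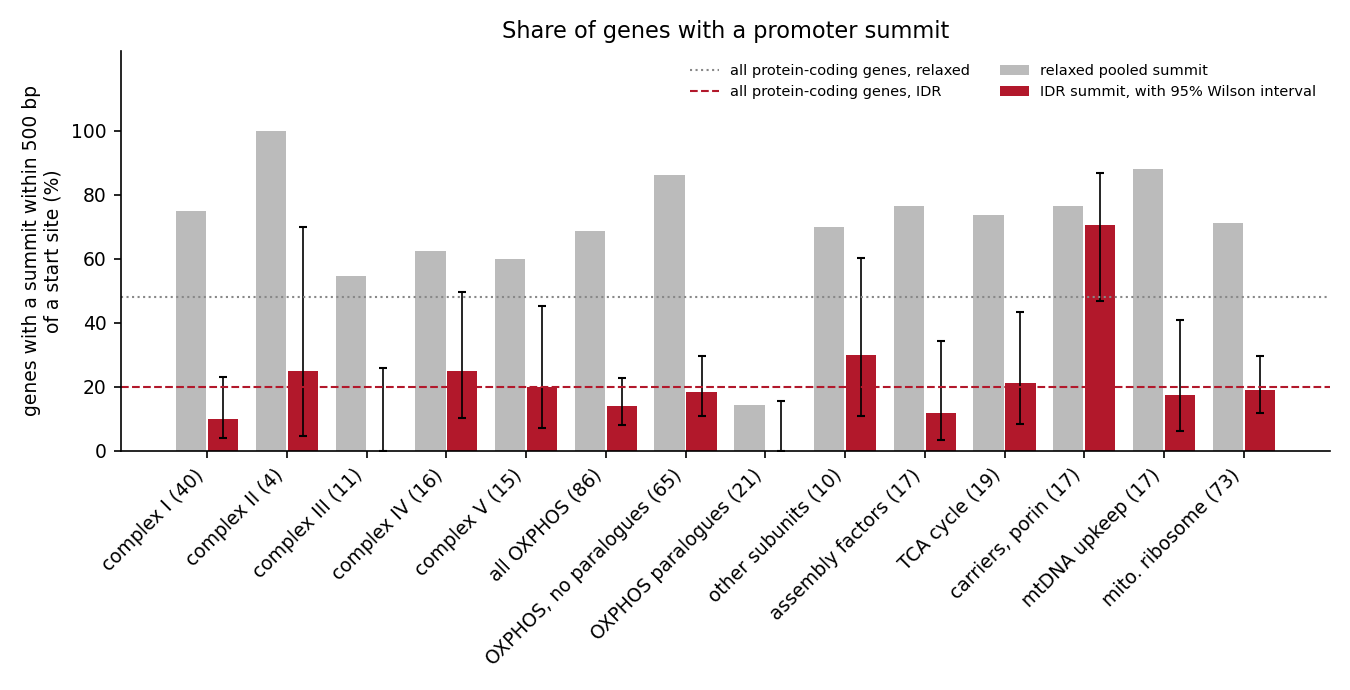
Share of genes in percent with a relaxed pooled summit (grey) and with an IDR summit (red, with 95% Wilson intervals) within 500 bp of a start site, by complex and for other mitochondrial gene lists, with the number of genes in brackets; lines give the shares of all protein-coding genes, 48.1% and 20.0%. For all 86 members the grey bar is at 68.6% and the red bar at 14.0%; by complex the red bars lie between 0 and 25%, and the carrier list stands at 70.6% bound.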

How the data were processed

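Peak lists in narrowPeak layout were deposited on dm6 and dm3; the dm3 lists were not used. Per the authors' deposited notes, every relaxed list was derived from alignments of the replicate or of both replicates with a control alignment, and the 3 relaxed lists gave the IDR list. Which aligner and which caller were used is not given in the sources used here. For each peak the signal value is a score deposited by the authors, comparable within a list only. The −log10 q-value was deposited as well and was at its maximum of 4.18 throughout the IDR list.

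Summits on X, 2L, 2R, 3L, 3R and 4 were set against Ensembl 115 start sites with Python 3.11.15 and pandas 2.3.3; 0 peaks ran past an arm end. Sequences came from the RefSeq release 6 assembly. Replicate summits were matched within 100 bp of an IDR summit, taking the strongest. The search recovered all 20 members planted in simulated data. Each planted summit lay within the same 500 bp window that the search uses, so this checks the code and not the assignment rule. Replicates alone entered with their 5703 strongest summits on the arms. Shares carry 95% Wilson intervals (statsmodels 0.14.6), which cover counting error only. No test between groups was possible.

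Named are all bound members, the 2 strongest unbound ones per complex by relaxed signal, those with an IDR summit 501 to 1000 bp away, genes sharing a summit, and up to 6 bound genes of each other list. Further members were named after their values were seen, to complete complexes II, III and V and the core of complex I, and to list those with no pooled summit; sesB, past the 6 strongest carriers, was too. Other lists named 119 symbols, older spellings included, of which 87 were found, some under a current name. Members and lists were chosen with earlier results of these data known. Alternatives were windows of 250 and 1000 bp, the stronger 2851 peaks, the relaxed pooled list, each replicate alone, 1 start site per gene, the nearest gene only, peak regions in place of summits, and members without paralogues.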

Additional observations from a re-analysis of the deposited data

Results flagged for a closer look

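The relaxed list of replicate 2 held 17 summits on the mitochondrial genome, outside the nuclear measurement, with signals from 604.7 to 3599, and the strongest of them ranked 1 in that list. Of these summits 13 lay in 7 protein-coding genes: mt:CoI, mt:CoII, mt:CoIII, mt:Cyt-b, mt:ND1, mt:ND4 and mt:ND5. The lists of replicate 3, of the pooled alignments and of the IDR step held 0. A signal outside the main measurement that is above a count of 3, the limit a count of 0 allows, drew attention to it. The 17 summits entered no count of the nuclear genes, and their part in any result was not tested.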

How the results depend on the processing

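The count of bound members, 12 of 86, stayed within 1.5 times under most alternatives. It was 11 with a window of 250 bp (12.8%, beside 16.7% of all genes) and 16 with 1000 bp (18.6%, beside 23.4%). It was 11 with 1 start site per gene (12.8%, beside 17.5%) and 8 with the nearest gene only (9.3%, beside 16.4%). Ties in the nearest gene were settled by name. COX6B was lost this way to CG18809, at the same distance, and this loss also enters the complex IV count below. Peak regions in place of summits gave 13 (15.1%, beside 21.6%), and without paralogues 12 of 65 were bound. Without replicate 2 the count was 13 (15.1%, beside 19.1% of all genes), and without replicate 3 it was 12 (14.0%, beside 20.5%). In either case 10 of them were bound in the IDR list. The stronger 2851 peaks left 3 members (3.49%, beside 11.1% of all genes), and the relaxed pooled list gave 59 (68.6%, beside 48.1%). By complex, in the order I to V, the stronger peaks left 1, 1, 0, 0 and 1, and the relaxed list gave 30, 4, 6, 10 and 9. Complex II fell to 0 with a window of 250 bp or the nearest gene only, complex IV to 2 with the nearest gene only, and complex V rose to 5 with 1000 bp; without 1 replicate the counts were 4 to 6, 1 to 2, 0 to 0, 2 to 5 and 2 to 3. Without replicate 2, complex IV had 2 and complex II had 2. The median signal of bound members, 162.6, was 161.1 and 179.1 with windows of 250 and 1000 bp, and 86.1 to 86.9 in the single replicates, whose scale differs from that of the pooled list. The stronger peaks and the narrower window are subsets, and the relaxed list and the wider window extend the counts by construction; the cause of the other changes was not tested. No paired analysis was possible because there is 1 group. Depth is unknown, so weak summits that did not reach the IDR list cannot be called absent.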
